A study of Rattus norvegicus with 16 samples.

Results

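The cell cycle genes described here are 36 genes listed by symbol, whose transcripts mark cells that copy their DNA or divide. Of these, 35 were listed in the tables of all 16 libraries and Ccnb2 in none, among 13596 genes listed in every table. They were ordered by role into 23 listed genes of mitosis and chromosome segregation, 10 of DNA replication and nucleotide supply, and Stmn1 and Hmgb2, which cells that are not dividing also transcribe. Intervertebral discs (IVDs) came from 8 male Sprague-Dawley rats that were 8 weeks old at surgery. In each rat L4-5 and L5-6 were stabbed once with a 27G needle (LDP, lumbar disc puncture), and L2-3 and L3-4 of the same animal were left unoperated (CON), so that control discs shared the animal with the injured ones. The 2 discs of a kind were pooled into 1 library of 3′ single-cell RNA. Rats 1 to 4 were taken at 2 weeks and rats 5 to 8 at 8 weeks after surgery, which made 4 libraries in each of 4 groups (CON and LDP at each time). Injured and control discs lay at different levels of the spine in every rat, so puncture and disc level cannot be told apart. The comparisons ask which disc and blood-derived cells carried division transcripts, and whether puncture or time moved them.

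A cell that divides first licenses its replication origins with the Mcm2 to Mcm7 helicase, loads the sliding clamp Pcna and makes nucleotides with Rrm1, Rrm2 and Tyms. It then enters mitosis under Cdk1 with its cyclins, condenses its chromosomes with Top2a, attaches them through centromere and checkpoint proteins (Cenpa, Cenpe, Cenpf, Bub1, Bub1b, Aurkb) and splits with the help of kinesins, Prc1 and Racgap1. Mki67 coats mitotic chromosomes and is the usual stain for cycling cells. Mature disc cells are known to divide rarely, whereas precursors of blood cells in the marrow divide often.

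The promoters of these roles differ in known control letters, and 4 are printed because they stand for the genes whose values follow. RefSeq (build GRCr8, while the submitters' processing notes name rn6) gave a window of 300 bases, 250 before to 50 after the start, for 29 of the 36 genes. Capitals mark, on either strand, the CHR letters TTTGAA or TTTAAA, the E2F letters TTCCCGC or TTGGCGC or TTCGCGC or TTGCCGC, and CCAAT. All windows below lie on the minus strand, Mki67 at chr1:199952544-199952843, Top2a at chr10:84473044-84473343, Mcm7 at chr12:22163129-22163428 and Pcna at chr3:139955771-139956070.
Mki67: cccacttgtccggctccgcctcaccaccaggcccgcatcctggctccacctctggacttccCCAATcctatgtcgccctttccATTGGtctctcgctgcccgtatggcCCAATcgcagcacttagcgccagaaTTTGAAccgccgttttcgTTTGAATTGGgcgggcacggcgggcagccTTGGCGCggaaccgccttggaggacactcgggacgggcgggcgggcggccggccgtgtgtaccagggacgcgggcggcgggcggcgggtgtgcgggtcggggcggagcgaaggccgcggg
Top2a: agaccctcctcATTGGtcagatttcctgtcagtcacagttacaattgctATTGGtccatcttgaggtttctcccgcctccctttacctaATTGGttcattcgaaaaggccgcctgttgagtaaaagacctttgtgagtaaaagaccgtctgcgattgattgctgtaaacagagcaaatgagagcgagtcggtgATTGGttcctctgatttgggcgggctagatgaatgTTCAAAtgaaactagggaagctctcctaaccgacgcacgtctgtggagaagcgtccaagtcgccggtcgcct
Mcm7: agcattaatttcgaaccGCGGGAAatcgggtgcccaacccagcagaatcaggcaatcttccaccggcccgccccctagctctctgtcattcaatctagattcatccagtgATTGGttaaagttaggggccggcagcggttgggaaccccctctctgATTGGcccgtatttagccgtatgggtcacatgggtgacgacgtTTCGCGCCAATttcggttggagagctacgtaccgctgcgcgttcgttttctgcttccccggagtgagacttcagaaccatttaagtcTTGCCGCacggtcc
Pcna: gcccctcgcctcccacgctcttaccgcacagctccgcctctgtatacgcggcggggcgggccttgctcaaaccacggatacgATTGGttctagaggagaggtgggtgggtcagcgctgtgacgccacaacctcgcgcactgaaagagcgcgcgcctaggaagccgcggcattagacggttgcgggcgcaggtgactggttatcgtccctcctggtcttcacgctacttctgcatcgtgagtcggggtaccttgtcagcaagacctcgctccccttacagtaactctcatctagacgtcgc
In Mki67 a CHR match overlaps a CCAAT match read on the other strand, and in Mcm7 an E2F match overlaps CCAAT. CHR letters were found for 19 of 19 mitotic genes with a window and 1 of 8 replication genes, against 28.2% of 33469 RefSeq promoter windows. E2F letters were found for 4 of 19 mitotic and 7 of 8 replication genes, against 9.52% of windows, and CCAAT for 15 of 19 and 6 of 8, against 37.5%. Pcna held 1 CCAAT match and neither of the other motifs. Kif2c has more than one window, of which 1 held CHR letters. These matches describe letters and not bound sites.

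The libraries held 149272 cells, 2221 to 15918 each, with 17759511 to 85023848 unique molecular identifiers (UMIs, each counted as 1 RNA molecule) and a cell at the median of its library had 3860 to 8090 of them. Classes are those deposited with the cells, made by clustering every group apart. The deposited labels were chondrocyte (or chondrocyte cell), endothelial, macrophage, immune cells and N/A. In that order they are called IVD, endothelial, myeloid, lymphoid and unnamed here. CON at 8 weeks had no endothelial class, so an unnamed cell is not the same kind of cell in each group. Any pair of libraries shared at most 75 cell barcodes, and at most 0.720% of the barcodes of the smaller one. To set cells of unequal depth side by side, 1000 UMIs were drawn from each of the 147220 cells that had them, and the score of a cell is the number of the 35 genes with a UMI among those 1000. The 2052 cells with fewer were left out, 715 of them among 8028 lymphoid cells. Doublets were not treated here, and the authors' upper limit left no cell above 3000 genes, with 3392 cells at 2900 or more. How far free RNA, doublets or that ceiling entered the values below was not tested. Because the classes were drawn from all genes, differences between classes are described and not tested.

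Lymphoid cells had the highest median score over libraries and IVD cells the lowest. The mean score per library had a median of 2.38 genes in lymphoid cells (1.71 to 9.87 over 11 libraries with at least 20 such cells) and of 0.380 in IVD cells (0.333 to 0.572 over 16). Endothelial cells lay between them at 1.02 (0.805 to 1.09, 12 libraries), and so did myeloid cells at 0.939 (0.511 to 1.65, 15 libraries) and unnamed cells at 1.15 (0.667 to 7.22, 16 libraries). Within a library the lymphoid score was 5.85 times the IVD score at the median (3.89 to 26.4), and it was the higher one in 11 of 11 libraries. Endothelial cells exceeded IVD cells in 12 of 12 libraries (median ratio 2.68), myeloid cells in 15 of 15 (2.59) and unnamed cells in 16 of 16 (2.91). Lymphoid cells also exceeded endothelial cells in 8 of 8 libraries and myeloid cells in 10 of 10, but unnamed cells in only 8 of 11. In LDP rats 3 and 4 and CON rat 5 the unnamed score was the higher one (7.22 against 2.14, 4.35 against 2.23 and 2.48 against 2.22). Endothelial, myeloid and unnamed cells overlapped each other.

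**Figure D1:**
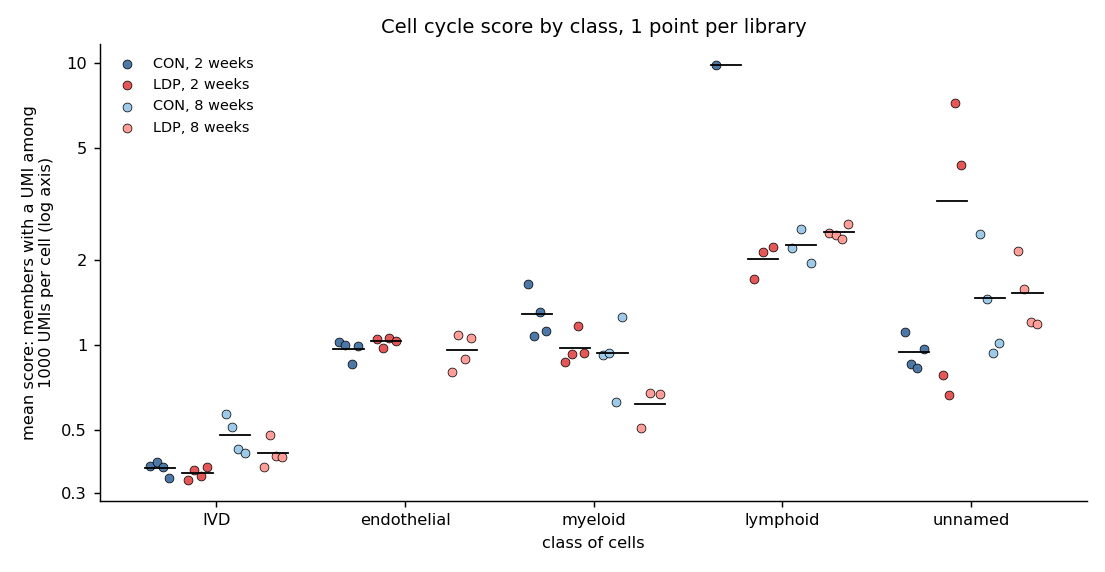
Mean cell cycle score (genes of the 35 with a UMI among 1000 UMIs per cell, log axis) by class, with 1 point per library and a line at each group's mean. Lymphoid cells lie at 1.71 or above, IVD cells between 0.333 and 0.572, and 1 control library and 2 punctured libraries stand far above their class.

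Cells that held 5 or more of the genes, called high-score cells here, numbered 1964. Lymphoid cells made up 4.97% of the scored cells and 58.9% of the high-score cells (1156), and unnamed cells made up 28.4% of them (557). IVD cells made up 85.7% of the scored cells and 6.72% of the high-score cells (132). The rest were 62 myeloid and 57 endothelial cells. In a median library 16.6% of lymphoid cells were high-score cells, against 1.38% of myeloid, 0.537% of endothelial and 0.0711% of IVD cells. The IVD share ran from 0 to 0.245%, and 2 libraries had none.

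A few libraries held most of the high-score cells. At 2 weeks CON rats 1 to 4 had 140, 5, 23 and 29 of them, and LDP rats 1 to 4 had 3, 26, 552 and 336. At 8 weeks CON rats 5 to 8 had 250, 312, 6 and 4, and LDP rats 5 to 8 had 87, 40, 117 and 34. CON and LDP overlapped at both times, with LDP rats 3 and 4 and CON rats 5 and 6 highest. In CON rat 1 the class of lymphoid cells was small but nearly all of it was scored high, 84 of 91 cells (92.3%), with a mean score of 9.87. Other cells of that library with B-cell precursor transcripts were left unnamed, with counts given below. Without that library the lymphoid scores ran from 1.71 to 2.70. The unnamed class reached 67.1% in LDP rat 3, 42.5% in LDP rat 4 and 20.8% in CON rat 5, and was at most 17.1% in the other libraries.

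**Figure D2:**
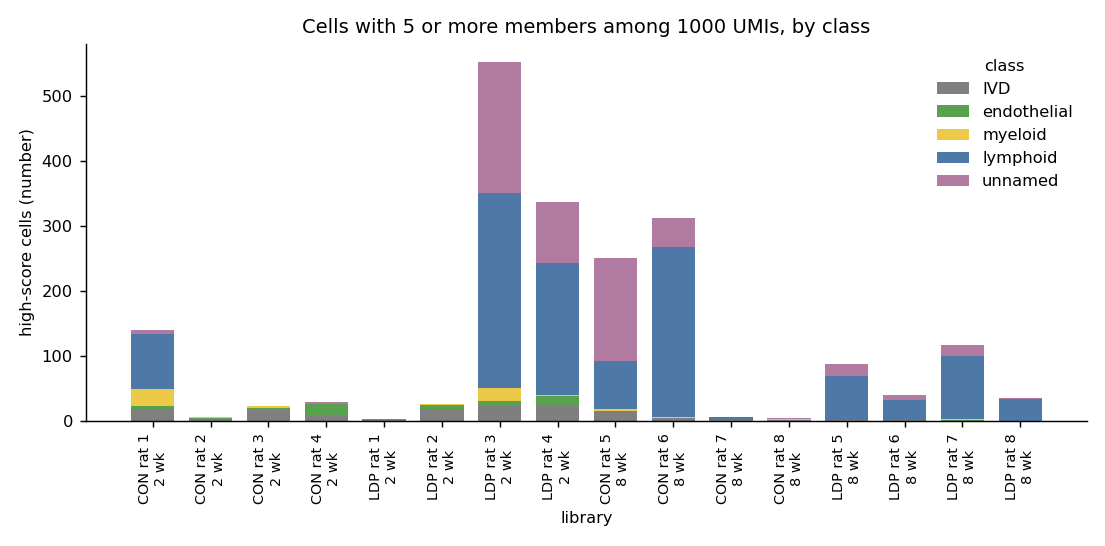
Number of cells with 5 or more of the 35 genes among 1000 UMIs in each library, stacked by class. The tallest bars are LDP rat 3 (552 cells), LDP rat 4 (336), CON rat 6 (312) and CON rat 5 (250), and lymphoid and unnamed cells fill most of them.

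Most lymphoid and unnamed high-score cells held transcripts of blood-forming lineages. The B-cell precursor list has 12 genes, among them Rag1, Vpreb1, Dntt and Myb, which act while B cells are made. Among lymphoid high-score cells 1053 of 1156 (91.1%) had a UMI of that list, and so had 94.2% of the other lymphoid cells. In 8 libraries with at least 10 lymphoid cells of each kind, the high-score cells were deeper than the other lymphoid cells in all 8 (median 5124 against 1933 UMIs). Their B-cell precursor UMIs were fewer in all 8 (median 2.92 against 4.22 per 1000). Of the unnamed high-score cells 318 of 557 (57.1%) held 20 or more UMIs of 7 listed erythroid genes such as Alas2 and Klf1, against 2.95% of the other unnamed cells.

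Taken by these markers in place of class, 6942 cells had 2 or more B-cell precursor UMIs, and a median of 13.8% of them were high-score cells (3.70 to 29.3% over 12 libraries). The highest share, 29.3%, was that of CON rat 1, with 283 such cells, of which 151 were unnamed and 69 lymphoid. The 1038 cells with 20 or more erythroid UMIs had a median of 26.0% (0 to 45.3% over 8 libraries), and 51 cells, 8 of them high-score cells, met both limits. The 139291 cells with neither had a median of 0.337% (0.0314 to 1.51%), yet still held 603 of the 1964. These limits were chosen after the values were seen.

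Among the 132 IVD high-score cells, 90 (68.2%) had 5 or more UMIs of the disc genes Acan, Col2a1, Sox9, Comp and Fmod, against 88.3% of the other IVD cells. A B-cell precursor UMI was present in 22.0% of them, against 1.38% of the other IVD cells, and 20 or more erythroid UMIs in 11.4%, against 0.356%. Neither list gave a UMI in 75 of the 132. In 6 libraries with at least 10 such cells, their disc UMIs were fewer than in the other IVD cells of that library in all 6 (median 10.1 against 22.9 per 1000), and their erythroid UMIs were more in 5. Their UMIs of the outer annulus genes Lum, Myoc, Fibin and Igfbp6 were also more in 5 (median 1.73 against 0.923 per 1000). Whether these were dividing disc cells, doublets or cells of another type was not tested.

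Nearly all of the genes peaked in the same class. Levels are mean UMIs per 1000000 UMIs of a cell (CPM) over the cells of a class, and 34 of 35 genes had their highest median over libraries in lymphoid cells, as did 34.5% of the 13594 listed genes with a level above 0. For 27 of the 35 the lowest median was in IVD cells, against 21.0% of those genes. The lymphoid median was a median of 28.6 times the IVD median for mitotic genes (7.72 to 172) and 8.63 times for replication genes (1.02 to 45.2). Mki67 had 412 CPM in lymphoid cells (106 to 3242), 37.4 in myeloid, 14.7 in endothelial and 3.93 in IVD cells (1.11 to 12.2). Top2a, which untangles and condenses chromosomes, showed the steepest step, with 243 CPM in lymphoid (24.2 to 1848) and 1.42 in IVD cells (0.287 to 5.59). Prc1, which bundles the spindle midzone, showed the smallest among mitotic genes, with 104 CPM in lymphoid and 13.5 in IVD cells. The lymphoid and IVD ranges of these 3 genes over libraries did not overlap.

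Pcna did not follow the other replication genes. Its median was 182 CPM in lymphoid cells (64.3 to 726) and 179 in IVD cells (118 to 272), and it was highest in endothelial cells at 340 (264 to 463). Mcm2, a subunit of the same replication machinery, had 41.6 CPM in lymphoid (0 to 213), 11.1 in endothelial (2.86 to 17.6) and 4.87 in IVD cells (3.29 to 6.28), so that its ranges overlapped. At 1000 UMIs Pcna was present in a median of 15.1% of IVD cells and 15.0% of lymphoid cells. With all UMIs counted these shares were 61.9% and 26.6%, IVD cells being the deeper ones, so no order was read from them. Stmn1, a microtubule regulator, had 631 CPM in lymphoid (469 to 3086), 426 in endothelial (289 to 464) and 33.4 in IVD cells. Hmgb2, a chromatin protein, had 1951 CPM in lymphoid (487 to 6082) and 115 in IVD cells (84.1 to 205).

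Cells with Mki67 held more of the other mitotic genes in the lymphoid class than in the IVD class. At 1000 UMIs Mki67 was found in 1014 lymphoid cells (13.9%), of which 12.2% held no other mitotic gene and 59.1% held 3 or more others. In IVD cells it was found in 535 cells (0.424%), of which 71.6% held no other and 10.1% held 3 or more. Lymphoid cells with Mki67 held a mean of 3.70 other mitotic genes, against 0.370 without it. IVD cells with it held 0.690, against 0.0475 without it. Relative to cells without Mki67 the step was 9.98 times in lymphoid and 14.5 times in IVD cells.

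Pcna and Mcm4 showed a much smaller step in IVD cells. The 17834 IVD cells with a Pcna UMI held a mean of 0.0603 mitotic genes, and the 108361 without one held 0.0535. In lymphoid cells the means were 1.60 with Pcna and 0.838 without. In IVD cells 94.9% of the Pcna cells held no mitotic gene at all. IVD cells with Mcm4 held a mean of 0.0725 mitotic genes and those without 0.0542, and 94.3% of the former held none. In lymphoid cells the means were 2.47 with Mcm4 and 0.882 without. Cells of a class share libraries, and none of these differences was tested.

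Because IVD cells were most numerous, they still held much of the RNA of these genes in a library. Of all UMIs of the mitotic genes, IVD cells held a median of 45.8% (13.5 to 95.6% over the libraries) and lymphoid cells 30.4% (0 to 75.8%). Of the replication genes, among which Pcna had the highest IVD level (median 179 CPM, Rrm1 next at 15.8), IVD cells held 86.4% (52.4 to 96.9%). A level taken over a whole disc therefore mixes classes in a ratio that changed from library to library.

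Among disc cells at 2 weeks, those of the outer annulus had higher scores than the others in every library but that of CON rat 2. The deposited tables number 3 subclusters of the IVD class at this time. In both groups number 3 was the one with the outer annulus genes Lum, Myoc, Fibin and Igfbp6, which had 3.13 to 5.75 UMIs per 1000 in it over the 8 libraries, against 0.214 to 0.460 in the other IVD cells. From these genes it is called OAF here (outer annulus fibrosus), and the other subclusters were pooled as inner cells. The mean score of OAF cells was 0.466, 0.344, 0.431 and 0.399 in CON rats 1 to 4 and 0.487, 0.485, 0.495 and 0.522 in LDP rats 1 to 4. Inner cells had 0.359, 0.392, 0.365 and 0.331 in CON and 0.323, 0.336, 0.330 and 0.343 in LDP. OAF cells exceeded inner cells in 7 of 8 libraries (median ratio 1.37, 0.876 to 1.52). CON rat 2 was the smallest of these libraries. By role, the median of OAF minus inner was 0.0698 for Stmn1 and Hmgb2, 0.0382 for mitotic genes and 0.0159 for replication genes. Each of these parts was higher in OAF in 7 of 8 libraries.

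OAF scores were higher in LDP than in CON of the same rat in 4 of 4 rats, by 0.0871 ± 0.0554 (SD, n = 4), and inner scores in 1 of 4. By role, the mean difference was 0.0559 for Stmn1 and Hmgb2 (higher in 4 of 4), 0.0244 for replication genes (3 of 4) and 0.00685 for mitotic genes (2 of 4). The share of high-score cells in OAF was higher in LDP in 2 of 4 rats and lower in 2. The subclusters were drawn apart in each group, and the outer annulus genes had fewer UMIs per 1000 in OAF cells of LDP in 4 of 4 rats, with 5.56, 5.75, 5.05 and 4.81 in CON rats 1 to 4 and 3.80, 4.50, 3.13 and 4.36 in LDP. The part of this makeup in the score was not tested. High-score cells made up a median of 0.413% of OAF cells (0 to 1.14%) and 0.0534% of inner cells (0.0128 to 0.218%). OAF held 55 such cells, of which 41 had no B-cell precursor or erythroid UMI, and inner cells held 54, of which 27 had none.

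**Figure D3:**
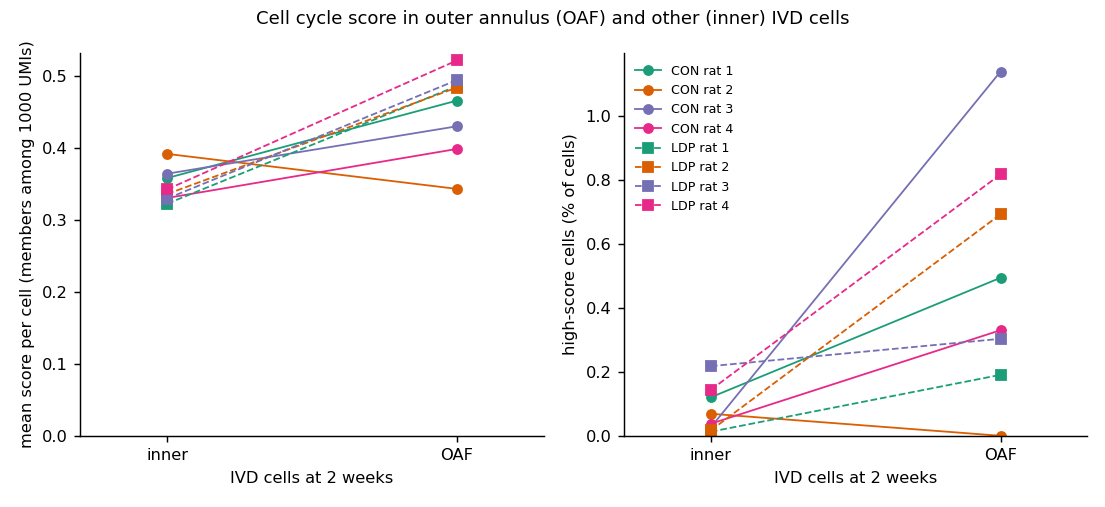
Mean cell cycle score (left, genes of the 35 among 1000 UMIs) and share of cells with 5 or more of them (right, %) in inner and OAF cells at 2 weeks, with 1 line per library (solid for CON, dashed for LDP). The score is higher in OAF in 7 of 8 libraries, and CON rat 2 goes the other way.

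By gene, 9 of 35 were higher in OAF than in inner cells in all 8 libraries, where 33.6% of all 13596 genes were, and 0 were lower in all 8, where 19.0% were. A count of 9 of 35 is thus no larger a share than among all genes. The genes had a median log2 ratio of +0.55, against +0.17 over all genes. Bub1, a kinase of the spindle checkpoint, led with 6.78 against 0.781 CPM (log2 ratio of CPM + 1, +2.21, range 1.39 to 2.80). Stmn1 followed with 89.0 against 23.3 CPM (+1.71, 0.44 to 3.25). Tyms, which makes thymidylate, had 3.26 against 0.438 CPM (+1.48, 1.07 to 2.20). The others were Ccnb1, Birc5, Cenpa, Aurka, Kif11 and Kif23. Mki67 had 11.3 against 5.51 CPM and was higher in 7 of 8. Cenpf went the other way, with 8.59 in OAF and 13.4 in inner cells, and was higher in OAF in 3 of 8. So did Tpx2 (median log2 ratio -0.44, higher in OAF in 2 of 8) and Mcm6 (-0.24, 1 of 8). Pcna had 135 and 131 CPM and was higher in OAF in 4 of 8. Subclusters were drawn from the same genes, so these are descriptions.

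Puncture moved none of the genes past the test in IVD cells at 2 weeks. Mean CPM per library was fitted as log2(CPM + 1) by limma with the rat as a block, over all genes with at least 1 CPM in at least 4 libraries, and a gene was called at a Benjamini-Hochberg adjusted p under 0.05. Of the 35 genes 27 passed that limit in these 16 libraries, 8 staying below it, and 0 were called, where 0.181% of the 11571 genes tested were called. At an unadjusted p under 0.05 limma had 1 (11.5% of all genes). After adjustment edgeR called 0 and DESeq2 called 1, where DESeq2 called 2.46% of all genes. The median log2 change was -0.07, against -0.08 over all genes, with 7 of 27 higher in LDP. That direction did not hold across alternatives, since 13 of 27 were higher with CPM of summed counts, 19 by edgeR and 20 by DESeq2, and 15 by limma without rat 1 (median +0.02). Mki67 had 7.29, 6.34, 6.06 and 2.73 CPM in CON rats 1 to 4 and 4.22, 3.64, 11.3 and 6.80 in LDP rats 1 to 4. Higher in 2 of 4 rats, it overlapped between groups. Prc1 had 13.6, 10.7, 13.0 and 12.6 CPM in CON and 20.7, 17.4, 15.5 and 17.4 in LDP. Every LDP library was above every CON library, yet limma gave +0.47 (SE 0.20) with an adjusted p of 0.394, and DESeq2 gave +0.76 with 0.0216. Tpx2, a spindle assembly factor, was also higher in 4 of 4 rats (+0.21), and Mcm6, Mcm7 and Tyms were lower in 4 of 4. Over all 13596 genes 8.04% were higher and 13.5% lower in 4 of 4 rats. The score of IVD cells was 0.374, 0.386, 0.371 and 0.338 in CON and 0.333, 0.361, 0.345 and 0.370 in LDP, lower in LDP in 3 of 4 rats and overlapping.

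At 8 weeks most of the genes lay lower in IVD cells of punctured discs, but none passed the test. Of 27 tested 0 were called (0.259% of all genes were), 22 were lower in LDP (22 by edgeR and 21 by DESeq2), and the median log2 change was -0.28 against -0.16 over all genes. Without rat 5 these medians were -0.17 and -0.11. At an unadjusted p under 0.05 there were 8 of 27 by limma, against 20.7% of all genes. After adjustment edgeR called 0 and DESeq2 1, Cenpf (-0.58, adjusted p 0.0223), where DESeq2 called 4.89% of all genes. All 8 replication genes and 12 of 17 mitotic genes tested were lower by limma. By limma the median over all genes was below 0 as well, so most genes lay lower in LDP on that scale. The median over all genes was -0.02 by edgeR and -0.006 by DESeq2, where the 27 genes had medians of -0.31 and -0.29. Cenpf, which binds kinetochores, had 12.2, 8.44, 9.04 and 6.63 CPM in CON rats 5 to 8 and 5.66, 4.70, 6.74 and 5.39 in LDP. It was lower in 4 of 4 rats (-0.59, SE 0.15, limma adjusted p 0.105), and the groups overlapped only between CON rat 8 and LDP rat 7. Bub1 had 1.67, 1.35, 1.58 and 0.982 CPM in CON and 0.205, 0.430, 0.648 and 0.663 in LDP. Its groups did not overlap (-0.69, SE 0.18, adjusted p 0.106). Mki67 had 12.2, 6.92, 3.14 and 2.16 CPM in CON and 1.30, 1.11, 2.47 and 1.57 in LDP. CON rats 5 and 6 were high, CON rat 8 lay below LDP rat 7, and the change of -1.24 (SE 0.41) had an adjusted p of 0.154. Stmn1 had 45.2, 41.3, 39.2 and 36.3 CPM in CON and 16.7, 32.4, 34.5 and 22.4 in LDP. These did not overlap either (-0.64, SE 0.23, adjusted p 0.178). By direction alone, 9 of 35 genes were lower in 4 of 4 rats (Mki67, Cenpf, Cenpa, Bub1, Kif11, Kif23, Mcm5, Tyms and Stmn1) and 0 were higher in all 4. Over all 13596 genes 25.2% were lower and 6.86% higher in 4 of 4 rats, so the share lower among these genes was close to that among all genes. In IVD cells other than high-score cells, outer annulus genes had 0.697, 0.464, 0.477 and 0.846 UMIs per 1000 in CON rats 5 to 8. They had 0.281, 0.367, 0.247 and 0.350 in LDP, without overlap. At 2 weeks Bub1 and Stmn1 had the highest log2 ratios of OAF to inner cells (+2.21 and +1.71). The part of this makeup in the IVD values was not tested.

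CON rats 5 and 6 were also the libraries of 8 weeks with the most high-score cells (250 and 312, against 4 to 117 in the other 6), nearly all in other classes. Their part in the IVD values was not tested. In IVD cells without a B-cell precursor or erythroid UMI, an alternative added after the values were seen, 25 genes were tested, 0 were called (0.0174% of all genes were), 8 were higher, and the median change was -0.18 against -0.14 over all genes. Of the 25, 2 had an unadjusted p under 0.05 by limma, as had 1921 of all 11527 genes tested. The IVD score was 0.572, 0.514, 0.430 and 0.414 in CON and 0.371, 0.483, 0.407 and 0.401 in LDP, lower in LDP in 4 of 4 rats (LDP minus CON, -0.0670 ± 0.0894 SD, n = 4), with overlap. Without rat 5 the difference was -0.0224 ± 0.00927 (SD, n = 3). The mitotic part of the score was lower in LDP in rats 5 and 6 and higher in rats 7 and 8, and the replication part was lower in 4 of 4. Of the replication genes, Pcna was found in the most IVD cells at 1000 UMIs (median 15.1%, against 1.61% for Rrm1). The change at 8 weeks was not shown to differ from that at 2 weeks. Of 27 genes 0 were called for the difference, as were 0.0% of 11571 genes, and the lowest adjusted p was 1.00. An unadjusted p under 0.05 was found for 1 gene (1.77% of all genes had one). The other tools, edgeR and DESeq2, called 0 of 27, where they called 0.0% and 0.112% of all genes.

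**Figure D4:**
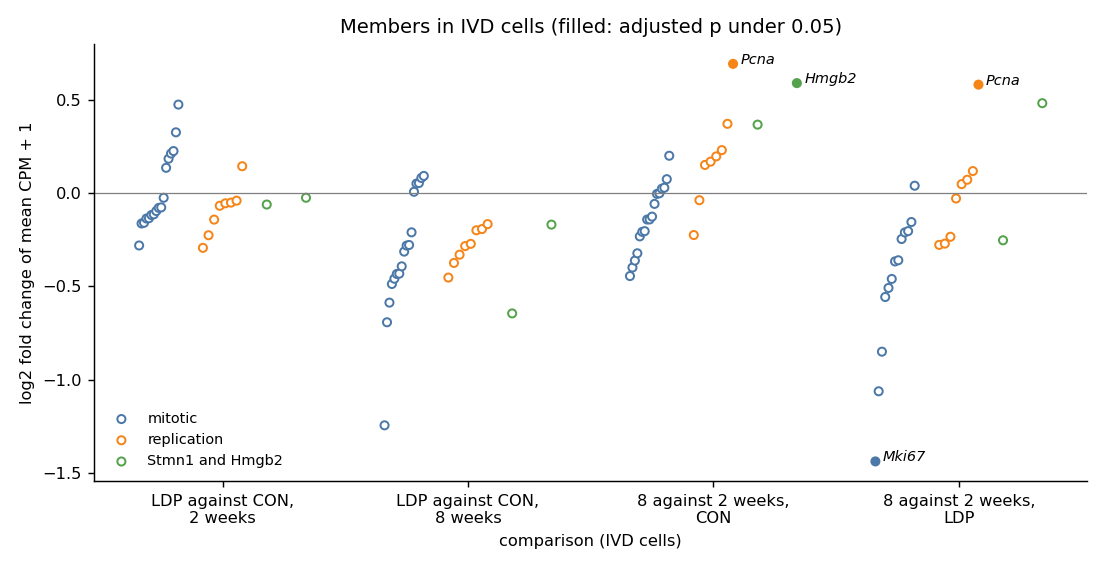
Log2 fold change of mean CPM + 1 in IVD cells for each gene tested, by comparison and role (blue mitotic, orange replication, green Stmn1 and Hmgb2), with filled points for limma adjusted p under 0.05. Points for puncture at 8 weeks lie mostly below 0 with none filled, and Pcna (both groups), Hmgb2 (CON) and Mki67 (LDP) are the filled points for time.

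With time, Pcna and Hmgb2 rose in IVD cells of control discs. The 2 times come from different rats, so age, time after surgery and the handling of each set cannot be told apart. In IVD cells other than high-score cells, disc genes had 28.6, 19.6, 28.7 and 22.0 UMIs per 1000 in CON rats 1 to 4. They had 12.2, 9.01, 11.8 and 13.7 in CON rats 5 to 8, without overlap. The part of this makeup in the changes over time was not tested. Of 27 genes tested 2 were higher at 8 weeks and 0 lower, where 7.48% of all 11195 genes were called higher and 11.8% lower. The share called higher among these genes was thus close to that among all genes. Pcna had 137, 177, 128 and 118 CPM in CON rats 1 to 4 and 272, 240, 190 and 203 in CON rats 5 to 8. The times did not overlap (log2 change +0.69, SE 0.15, limma adjusted p 0.0110), and the call held in 15 of 15 alternatives. Hmgb2 had 108, 101, 94.6 and 112 CPM at 2 weeks and 205, 171, 132 and 129 at 8 weeks. These did not overlap (+0.59, SE 0.14, adjusted p 0.0191), and the call was lost without rat 3 (0.0585). None of the 17 mitotic genes tested passed, 13 of them being lower at 8 weeks (median -0.14). Mcm2 had 4.85, 4.35, 5.21 and 5.04 CPM at 2 weeks and 6.28, 6.25, 5.92 and 4.13 at 8 weeks, with overlap (+0.17, adjusted p 0.409). Top2a had 3.06, 1.51, 3.83 and 1.32 CPM and then 2.83, 4.09, 0.287 and 0.331, with a wide overlap (-0.44, adjusted p 0.511).

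In punctured discs Mki67 fell and Pcna rose from 2 to 8 weeks, both close to the threshold. Of 23 genes tested 1 was called higher, where 1.1% of all 10954 genes were, and 1 lower, where 3.28% were. With 1 gene in each direction, these shares cannot be set apart from the background. DESeq2 called 1 of 23 higher and 5 lower, against 5.81% and 6.34% of all genes. Mki67 went from 4.22, 3.64, 11.3 and 6.80 CPM in LDP rats 1 to 4 to 1.30, 1.11, 2.47 and 1.57 in LDP rats 5 to 8, with no overlap (-1.44, SE 0.30, adjusted p 0.0295). That call was lost without rat 3, 5, 6, 7 or 8 (adjusted p 0.0525 to 0.0840) and in IVD cells without a B-cell precursor or erythroid UMI (-0.91, 0.146). Pcna went from 127, 133, 124 and 149 CPM to 185, 243, 197 and 180, with no overlap (+0.58, SE 0.14, adjusted p 0.0465), and was still called in 5 of 15 alternatives. Hmgb2 had 84.1, 102, 98.1 and 115 CPM and then 128, 181, 115 and 140, with a slight overlap (+0.48, SE 0.17, adjusted p 0.133). Top2a had 0.507, 1.97, 5.59 and 5.48 CPM and then 0.479, 1.29, 0.936 and 0.533 (-1.06, adjusted p 0.177). LDP rats 3 and 4 stood high at 2 weeks, and these were also the libraries with 552 and 336 high-score cells, whose part in the IVD level was not tested. Of the 13 mitotic genes tested 12 were lower at 8 weeks (median -0.37, against -0.09 over all genes), 5 with an unadjusted p under 0.05, against 22.6% of all genes. In IVD cells other than high-score cells, disc genes had 27.3, 19.9, 25.9 and 17.2 UMIs per 1000 in LDP rats 1 to 4. They had 9.89, 9.40, 10.4 and 11.4 in LDP rats 5 to 8. Outer annulus genes had 0.465, 0.964, 0.486 and 0.967, and then 0.281, 0.367, 0.247 and 0.350. Neither list overlapped between times, and the part of this makeup in the changes was not tested. CON and LDP at a time share rats. A difference of the time change between LDP and CON is the same contrast as that of the puncture change between 8 and 2 weeks, for which 0 of 27 genes were called.

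**Figure D5:**
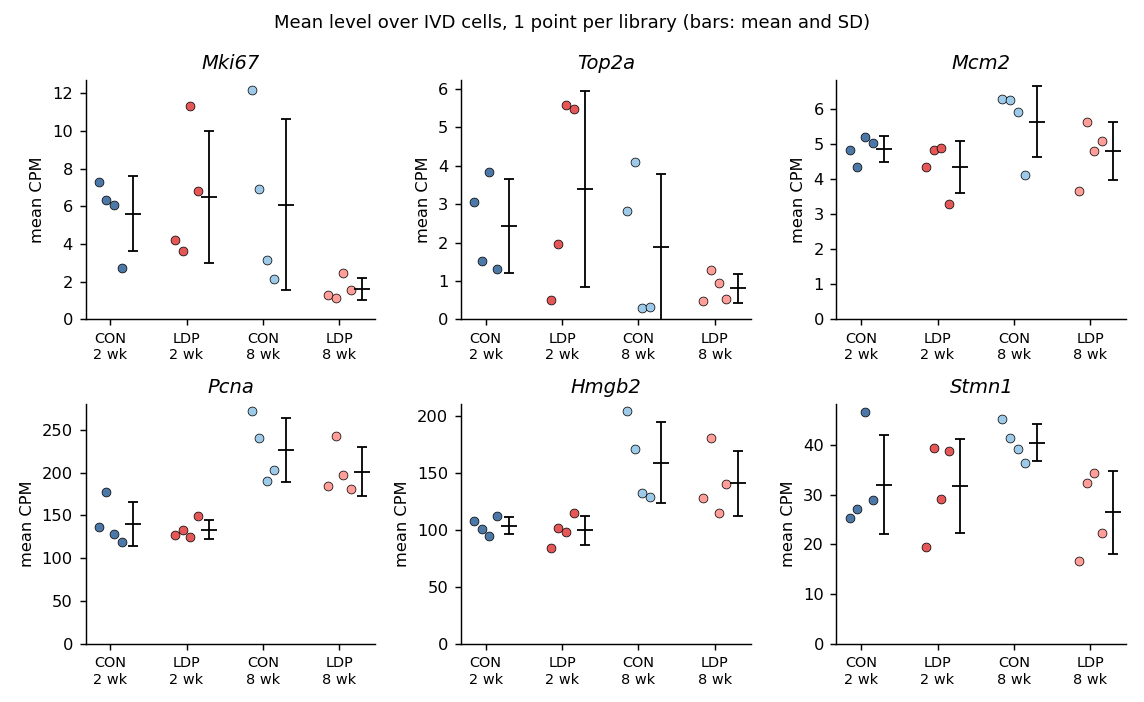
Mean CPM over IVD cells for 6 of the genes, with 1 point per library by group and bars at the mean and SD (the lower bar of Top2a in CON at 8 weeks is cut off at 0). Pcna lies higher at 8 weeks in both groups without overlap, Hmgb2 does so in CON but overlaps in LDP, and Mki67 in LDP at 8 weeks lies between 1.11 and 2.47.

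The mean score mixes genes that differed in direction over time. On the log2 scale the IVD score was 0.38 higher at 8 weeks in CON and 0.23 in LDP, but without Stmn1, Hmgb2 and Pcna it was lower, by -0.09 and -0.34. This sign change was not tested.

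Over all cells of a library no gene passed the test either. At 2 weeks 0 of 35 genes were called (0.0% of 12200 genes were), with 0 at an unadjusted p under 0.05 (9.17% of all genes had one). The other tools, edgeR and DESeq2, called 0 of 35, where they called 0.0% and 1.16% of all genes. The values lay higher in LDP for 33 of 35 (median +0.43, against -0.06 over all genes). Without rat 3 the median was +0.06, with 19 of 35 higher. It was +0.19 without rat 4 and +0.95 without rat 1, where 35 of 35 were higher and 19 had an unadjusted p under 0.05 (11.3% of all genes had), with 0 called. The score over all cells was 0.568, 0.462, 0.416 and 0.409 in CON and 0.358, 0.419, 0.833 and 0.727 in LDP, lower in LDP rats 1 and 2 and higher in LDP rats 3 and 4 than in the control of the same animal. At 8 weeks 0 of 35 were called (0.0082% of all genes were), again with 0 at an unadjusted p under 0.05 (9.13% of all genes had one). Here edgeR and DESeq2 also called 0 of 35, where they called 0.0164% and 1.71% of all genes. Of the 35, 11 lay higher by limma, but 24 by edgeR and 25 by DESeq2, and 26 and 29 by limma without rat 5 or rat 6, so that no direction held.

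Within endothelial and myeloid cells the scores of CON and LDP also overlapped at 2 weeks. Endothelial cells had 1.03, 1.01, 0.860 and 0.993 in CON and 1.06, 0.978, 1.06 and 1.04 in LDP. Myeloid cells had 1.65, 1.08, 1.31 and 1.12 in CON and 0.875, 0.935, 1.17 and 0.939 in LDP, lower in LDP in 4 of 4 rats (LDP minus CON, -0.312 ± 0.312 SD, n = 4). Without rat 1 the difference was -0.156 ± 0.0223 (SD, n = 3). The mean of CON rat 4 came from 25 cells, of which 1 scored 12, and that of LDP rat 1 from 32 cells. The makeup of the class differed between these libraries, since granulocyte precursor genes had 50.3 UMIs per 1000 in myeloid cells of CON rat 1, 44.6 in LDP rat 3 and 56.8 in LDP rat 4, and at most 1.31 in the other 5. Its part in the scores was not tested. At 8 weeks myeloid cells had 0.924, 0.943 and 0.629 in CON rats 5 to 7 and 0.511, 0.676 and 0.674 in LDP. The LDP score was higher in 1 of these 3 rats. Lymphoid cells could be set side by side in 3 rats at 8 weeks, with 2.22, 2.59 and 1.96 in CON rats 5 to 7 and 2.50, 2.47 and 2.38 in LDP rats 5 to 7, which overlapped.

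Other genes of the cell cycle, from a list of cyclins, inhibitors, licensing and checkpoint factors, gave no call for puncture by limma. Of 59 tested in IVD cells 0 were called at 2 weeks, 0 at 8 weeks and 0 for the difference, where 0.181%, 0.259% and 0.0% of all genes were. Gas1, a growth arrest gene, came closest at 8 weeks and was named after its values were seen. It had 24.8, 32.3, 45.9 and 37.9 CPM in CON rats 5 to 8 and 1.62, 10.0, 9.69 and 13.5 in LDP, with no overlap (limma -2.11, SE 0.37, adjusted p 0.0533). DESeq2 called it lower in LDP at 2 weeks (-1.19, adjusted p 0.030) and at 8 weeks (-2.22, 1.01e-07), where it called 2.46% and 4.89% of all genes, and limma called it at 8 weeks with a 5 CPM filter, a pseudocount of 0.25 or CPM of summed counts (adjusted p 0.0489, 0.0492 and 0.0455). With time in CON, 7 of 56 were higher and 3 lower at 8 weeks, where 7.48% of all genes were called higher and 11.8% lower. The higher ones were led by Cks2, which binds cyclin-dependent kinases (+1.01, SE 0.18, adjusted p 0.00480), by Txnip, which accompanies growth arrest (+0.83, 0.0428), and by Dut, which keeps uracil out of DNA (+0.71, 0.00164). The lower ones were Ccnd2, a cyclin of G1 (-0.71, 0.00555), Gas1 (-0.56, 0.0366) and Tubb4b (-0.42, 0.0281). In LDP 0 of 56 were higher, against 1.1% of all genes, and 2 were lower, Gas6 (-1.05, 0.0413) and Ccnd2 (-0.70, 0.0339), close to the 3.28% of all genes. Ccnd2 had 22.8, 25.0, 26.9 and 22.4 CPM in CON and 25.5, 30.7, 23.2 and 21.4 in LDP at 2 weeks. At 8 weeks it had 12.9, 14.6, 18.4 and 12.4 in CON and 15.9, 14.9, 14.3 and 15.1 in LDP, below every library of 2 weeks.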

How the data were processed

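Cells of 16 libraries were sequenced from 10x Genomics 3′ libraries. The authors processed them in Partek (the submitters' notes also name rn6), kept cells by mitochondrial, gene and UMI limits, and clustered each group. The aligner is not given in the sources used here. The gene values deposited are log2(CPM + 1) per cell. The authors also deposited each cell's total as an expected count, its gene count, and its mitochondrial and ribosomal percent. Here whole UMI counts were recovered from the deposited values, 99.4% of values above 0 coming out whole within 0.02. All columns matched a sample (0 did not).

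Lists, members and limits were chosen with earlier results of these data known. Every gene could be named, with values per library for Mki67, Top2a, Pcna, Mcm2, Stmn1, Hmgb2 and genes past an adjusted p of 0.05. Prc1, Cenpf, Bub1, Ccnd2 and Gas1 were given per library after their values were seen. Other cell cycle genes were named only past 0.05, at most 3 per direction. Mean CPM per library was fitted by limma 3.58.1 in R 4.3.3, with Benjamini-Hochberg adjustment over all genes. Settings were a pseudocount of 1, a trend, the rat as block for puncture and no block for time. The IVD fits for puncture at each time and for time in each group were tried on simulated counts. Those counts covered genes at 5 CPM or more and held no rat effect. The fit of the difference and the fits over all cells were not simulated. Alternatives were edgeR 4.0.16 and DESeq2 1.42.0 on summed counts, no block, other filters, depths and pseudocounts, and each rat left out. Rats are the replicates. Each rat gave 1 CON and 1 LDP library, and these were matched by the number in the sample titles. Deviations of matched libraries from group means correlated at -0.183 to 0.454 (median 0.139, n = 8). For different rats of 1 time they correlated at -0.324 to 0.252 (median -0.0449), so the ranges overlapped. Scores and classes were compared without a test. Counting error is not the only error: cells of 1 library share its preparation. Python 3.11.15, numpy 2.4.6, pandas 2.3.3, scipy 1.17.1 and matplotlib 3.10.9 were used.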

Additional observations from a re-analysis of the deposited data

Results flagged for a closer look

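Among 47 groups of 4 libraries looked at, 1 held a library far from the others: Mcm2 in IVD cells of CON at 8 weeks, where CON rat 8 had 4.13 CPM and the other 3 libraries 5.92 to 6.28. About 1 in 20 such groups would show this by chance.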

How the results depend on the processing

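For puncture, the count of genes called in IVD cells was 0 at each time under every alternative except DESeq2, which called 1 at 2 weeks (Prc1, higher) and 1 at 8 weeks (Cenpf, lower). The difference between times and the fits over all cells called 0 throughout. Without the rat as a replicate block the counts were also 0, so the block changed no call. For time in CON the count was 2 to 3 throughout. For time in LDP it was 2, but 1 with edgeR, a 5 CPM filter or CPM of summed counts. With DESeq2 it was 6 (1 higher, 5 lower), where DESeq2 called 12.1% of all genes and limma 4.38%. It was 0 in IVD cells without a B-cell precursor or erythroid UMI (chosen after seeing the data), and 0 to 3 with 1 rat left out. The log2 ratio of the IVD score over time was 0.383 in CON and 0.232 in LDP, and -0.0871 and -0.339 without Stmn1, Hmgb2 and Pcna, which set its sign. The log2 ratio of lymphoid to IVD score was 2.64, and 3.80 without these 3 genes. With 1 rat left out, the score ratios of LDP to CON in IVD cells ran from -0.122 to -0.0227 at 2 weeks and from -0.265 to -0.0719 at 8 weeks. Over all cells they ran from 0.00779 to 0.565 and from -0.244 to 0.123. Low levels limit these genes: Ccna2 had a median of 0.469 CPM in IVD cells, and 6 of 23 mitotic and 2 of 10 replication genes stayed below the filter there for puncture.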
